A study of Mus musculus with 9 samples.

Results

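Skeletal muscle sarcomere and calcium genes are the 40 genes, named by symbol, whose products build the contractile filaments, the Z-disc and M-band, the calcium cycle and the energy supply of skeletal muscle fibres. They were read in cells sorted from the periosteum of the mouse tibia, the tissue that covers the bone, as a measure of muscle transcripts in the sorted cells. A probe carrying the symbol in the platform annotation was found for 37 of the 40, among 16593 annotated genes on the array, and 28 of the 37 were measured, which here means detected above background on at least 3 of the 9 arrays. All pools came from B6;129S6 mice with the αSMACreERT2/Ai9 genotype, in which the αSMA (Acta2) promoter drives a tamoxifen-dependent Cre that switches on a tomato reporter, so any cell with an active Acta2 promoter at the time of tamoxifen, and its progeny, is sorted. All mice, controls included, received 2 doses of 75 µg/g tamoxifen. The unfractured group holds 3 pools of 8 to 9 mice aged 4 to 5.5 months, collected 2 days after tamoxifen. The group sampled 2 days after fracture holds 3 pools of 7 to 8 mice aged 2 to 5.5 months, and the group sampled 6 days after fracture holds 3 pools of 4 to 8 mice aged 3 to 5.5 months. In each group 1 pool was female (unfractured replicate 2, day 2 replicate 3 and day 6 replicate 3) and 2 were male. Unfractured cells were taken only 2 days after tamoxifen, so for day 6 the fracture and the longer time since tamoxifen cannot be told apart.

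In a muscle fibre, thick filaments of myosin slide along thin filaments of actin when calcium, released from the sarcoplasmic reticulum, binds the troponin complex on the thin filament. Calcium pumps then return the calcium to its store, and creatine kinase and glycolytic enzymes supply the ATP. Fast and slow fibres use different genes for the same parts of this machine, so many of these genes mark 1 kind of fibre. Periosteum lies under muscle, and muscle fibres are not a cell type of the periosteum itself.

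Values are log2 intensities after background correction and quantile normalisation, given for replicates 1, 2 and 3 of a group in that order, and a level is compared only between pools of the same gene, never between genes. The arrays detected between 40.4% and 55.2% of their probes, with the fewest on unfractured replicate 1, and replicate pools correlated across genes at r between 0.854 and 0.990. In every group 1 pool carried far more macrophage and pan-leukocyte transcripts than the others: on the mean of 16 measured markers, unfractured replicate 3 read 11.18, day 2 replicate 1 read 12.41 and day 6 replicate 1 read 10.86, against 7.17 to 8.58 in the other 6 pools. The leukocyte markers named below are these 16. Neutrophil markers did not set unfractured replicate 3 apart, with means of 12.62, 10.73 and 12.51 in the unfractured pools. Acta2 itself, whose promoter drives the label, lay between 14.09 and 16.09 in all 9 pools. In bulk samples fewer cells of a type and less RNA per cell cannot be told apart.

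Of the 37 genes with a probe, 11 were detected on all 9 arrays, namely Myl1, Acta1, Tnni2, Tnnt1, Tpm3, Actn3, Myom1, Atp2a1, Pvalb, Eno3 and Mb. Another 5 were detected on none, namely the slow myosin heavy chain Myh7, the slow troponin I gene Tnni1, the fast calcium store gene Casq1, the pump regulator Sln and the release-complex gene Trdn. The fast heavy chains Myh1 and Myh4 were detected on 2 arrays and 1 array, all at day 2, the Z-disc gene Myoz1 on 2 day 2 arrays, and Myl2 on 2 arrays. Myh2, Neb and Xirp2 had no probe under that symbol in the annotation and were not analysed here. Unfractured replicate 1 detected 16 of the 37, replicate 2 detected 28 and replicate 3 detected 18, while the day 2 pools detected 22, 29 and 27 and the day 6 pools 20, 23 and 23. The counts were thus highest in unfractured replicate 2 and in day 2 replicates 2 and 3. Of all probes, the unfractured arrays detected 40.4%, 46.4% and 50.7%, the day 2 arrays 50.4%, 55.2% and 53.4% and the day 6 arrays 54.5%, 54.4% and 52.1%. The dimmest detected signal was 6.66 in unfractured replicate 1 and between 5.51 and 6.05 in the other pools. A gene undetected in unfractured replicate 1 is thus not always lower there.

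The measured muscle genes differed widely between pools of the same group. Unfractured replicate 2 was the highest of the 9 pools for 21 of 28 measured genes, where 11.2% of all 10073 measured genes peaked in that pool. Beneath it, the day 2 pools lay above the day 6 pools without overlap for 12 genes, against 13.2% of all genes, and the reverse order was seen for 1 gene, Myl3, against 11.8%. The full sequence, with unfractured replicate 2 above all day 2 pools and these above all day 6 pools, held for 12 genes, where 2.42% of all genes showed it. Averaged over the 28 genes, unfractured pools read 7.46, 9.34 and 6.64, day 2 pools 7.41, 8.11 and 8.19 and day 6 pools 6.37, 7.09 and 6.77. The unfractured pools were the most widely spread on this mean, and every day 6 pool lay below every day 2 pool.

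**Figure D1:**
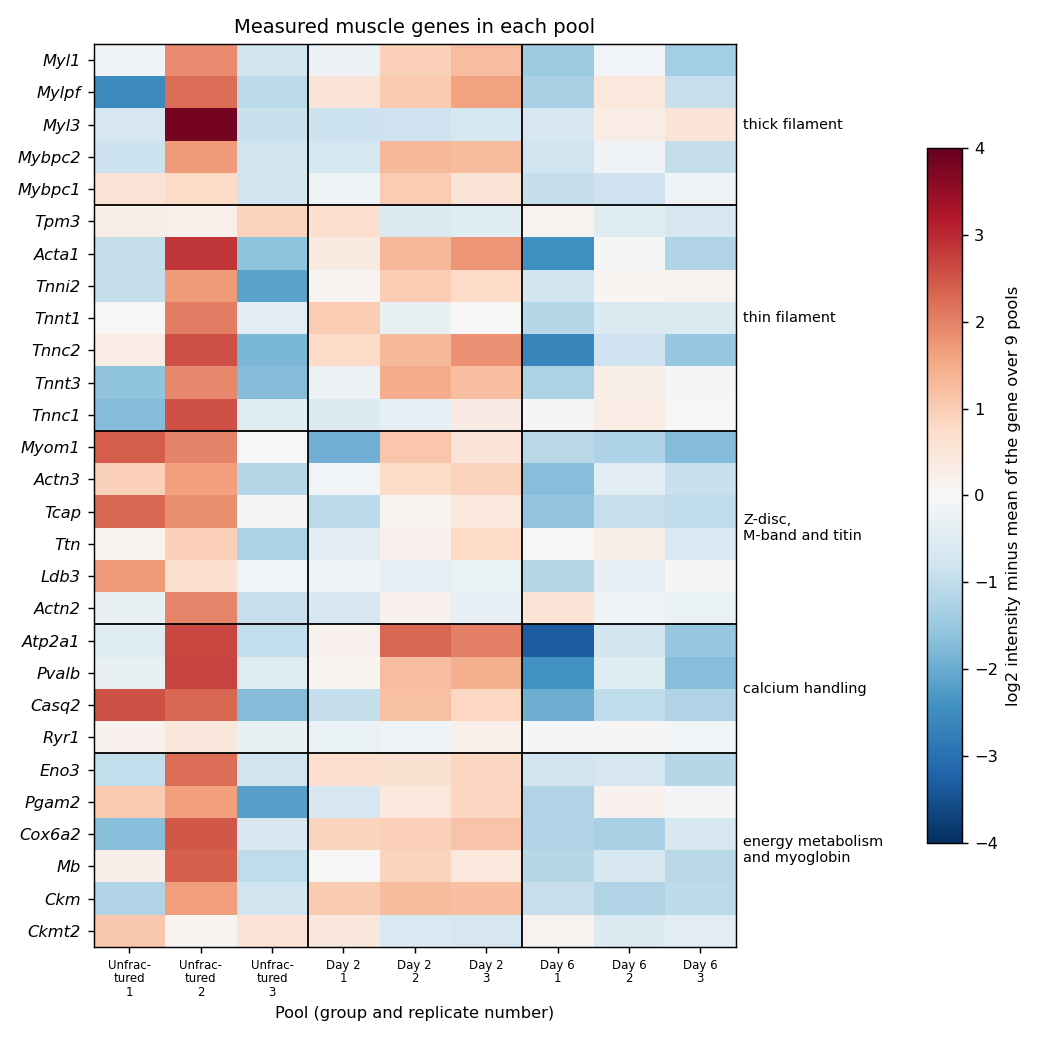
Each row is 1 of the 28 measured muscle genes, grouped by role, and each column 1 of the 9 pools. Colour gives the log2 intensity minus the mean of that gene over the 9 pools. Most rows are darkest red in unfractured replicate 2, paler red in the day 2 pools and blue in the day 6 pools, while Myom1, Tcap, Ldb3 and Casq2 are red in unfractured replicates 1 and 2.

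None of the 28 measured genes passed limma's moderated test at an adjusted p under 0.05 in any of the 3 comparisons. For day 2 against unfractured 0% of all genes passed, the smallest adjusted p of a muscle gene was 0.279 (Tcap, limma), and 1 muscle gene had an unadjusted p under 0.05, being lower at day 2, against 7.02% of all genes on the lower side. For day 6 against unfractured 2.82% of all genes passed, the smallest adjusted p was 0.064 (Tcap, limma), and 4 muscle genes, all lower at day 6, had an unadjusted p under 0.05, against 8.94% of all genes on the lower side. For day 6 against day 2 1.42% of all genes passed, the smallest adjusted p was 0.182 (Ckm, limma), and 6 muscle genes, all lower at day 6, had an unadjusted p under 0.05, against 4.64% of all genes on the lower side. As a share of the 28, the first of these counts lay below its background and the other 2 above.

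The sizes differed in direction between the comparisons. The median log2 difference of the 28 genes stood at 0.13 between day 2 and unfractured pools, at -0.99 between day 6 and unfractured pools and at -1.22 from day 2 to day 6, beside medians of 0.06, 0.04 and -0.04 over all genes. Over the 37 genes with a probe, with no filter on detection, the medians were 0.08, -0.79 and -0.81. At day 6 the fitted value was lower than in unfractured pools for 26 of 28 genes and lower than at day 2 for 23 of 28, where 47.4% and 54.0% of all genes were lower. A drop of more than 1 on the log2 scale from day 2 to day 6 was fitted for 16 of the 28, against 3.9% of all genes. Since the genes share pools and were chosen as a group, these counts describe the 9 pools and were not tested as a set.

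**Figure D2:**
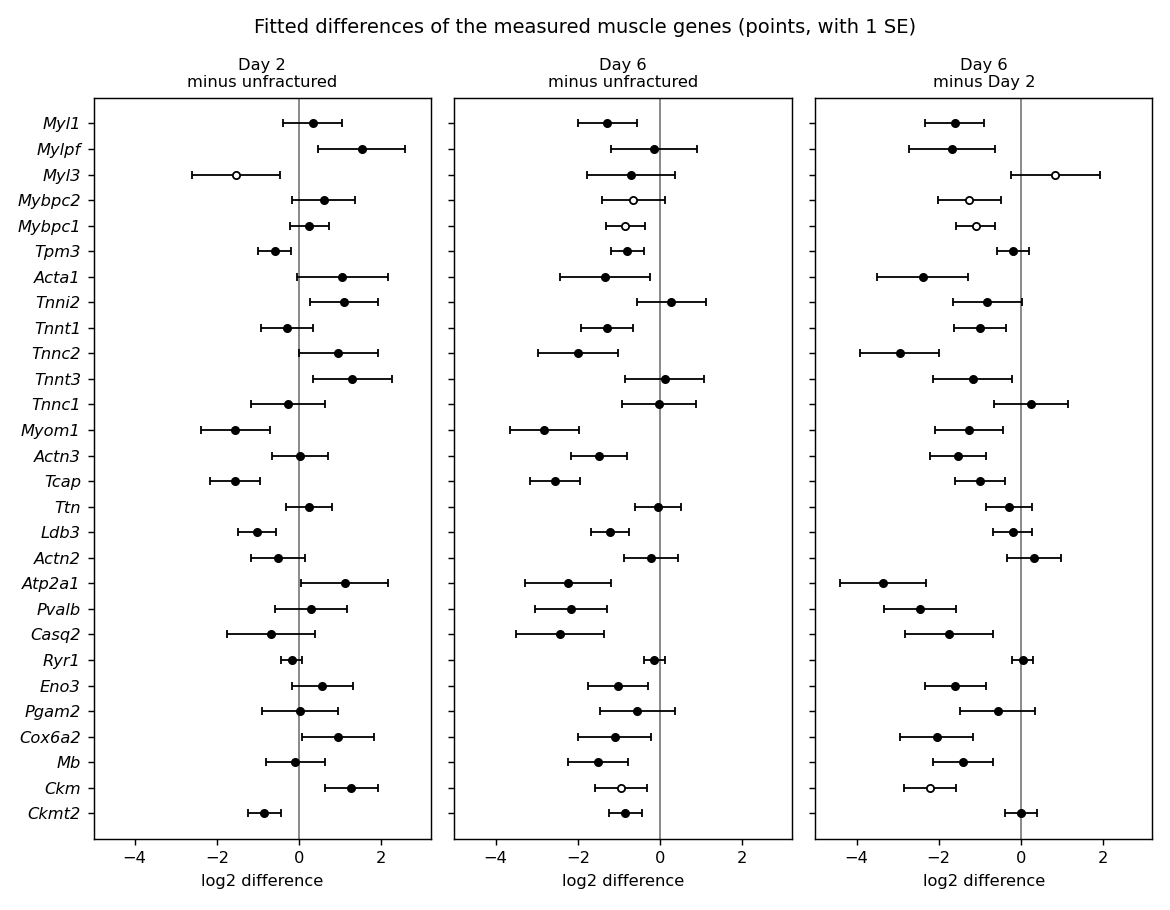
Points give the fitted log2 difference of each measured muscle gene in the 3 comparisons and bars its standard error (limma, 3 pools a group). Open points mark genes whose probe was undetected on all 3 arrays of 1 of the groups. In the panel of day 6 minus day 2, 23 of the 28 points lie left of 0, Atp2a1 (-3.36) the farthest, while day 2 minus unfractured spreads to both sides.

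The thick filament genes were led in the unfractured group by replicate 2. Myl1, the essential light chain of fast myosin, read 10.72, 12.76 and 10.05 in unfractured pools 1 to 3, 10.62, 11.80 and 12.09 at day 2 and 9.43, 10.75 and 9.51 at day 6. A second Myl1 probe was detected on 0 arrays. The fitted difference was -1.61 ± 0.72 (SE, n = 3 pools a group) for day 6 against day 2, with a limma adjusted p of 0.432. The day 6 pools overlapped the day 2 pools through replicate 2. Mylpf, the regulatory light chain of fast myosin, read 4.93, 9.68 and 6.41 without fracture, 7.98, 8.52 and 9.09 at day 2 and 6.16, 7.87 and 6.55 at day 6. Here every day 2 pool stood above every day 6 pool, narrowly, and unfractured replicate 1 was not detected. Mybpc2, the fast form of myosin-binding protein C, read 4.82, 7.40 and 4.90 unfractured, 4.99, 7.00 and 6.94 at day 2 and 4.89, 5.54 and 4.73 at day 6, and was detected only in unfractured replicate 2 and in 2 day 2 pools. The probe used for Mybpc1, a related form, was detected on 3 arrays and read 6.09, 6.32 and 4.74 unfractured, 5.33, 6.54 and 6.02 at day 2 and 4.57, 4.70 and 5.34 at day 6. The other Mybpc1 probes, each detected on 3 arrays as well, disagree: one read 5.33, 6.25 and 6.44 at day 2 and 4.69, 4.97 and 4.55 at day 6, and the other 5.79, 5.54 and 5.24 at day 2 and 5.91, 5.46 and 5.30 at day 6. With all day 6 arrays undetected, the day 2 mean of Mybpc2 was set against the dimmest detected signal of those arrays, and stood 1.66-fold higher. Day 2 replicate 1 was undetected too, so this is not a firm lower bound, and the pools of the groups overlapped. The limma adjusted p for day 6 against day 2 was 0.619.

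The slow light chains stood out through 1 pool. Myl3, the essential light chain of slow and ventricular myosin, read 5.27, 9.77 and 5.05 without fracture, 5.11, 5.13 and 5.25 at day 2 and 5.30, 6.23 and 6.45 at day 6. Only unfractured replicate 2 was high. All day 2 arrays were undetected, and 2 day 6 arrays were detected at a low level. Myl2, the regulatory light chain of slow and ventricular myosin, was not among the measured genes because only 2 arrays detected it, yet it read 10.58 in unfractured replicate 2 and between 4.70 and 5.67 in the other 8 pools. Tnnc1, the troponin C of slow and cardiac muscle, read 5.10, 9.38 and 6.35 unfractured, 6.32, 6.53 and 7.19 at day 2 and 6.76, 7.14 and 6.88 at day 6. It too was high in unfractured replicate 2 alone, and its day 2 and day 6 pools overlapped. Myl2 and Myl3 were high in that pool, while Myh7, the heavy chain they pair with, was detected on none of the 9 arrays.

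**Figure D3:**
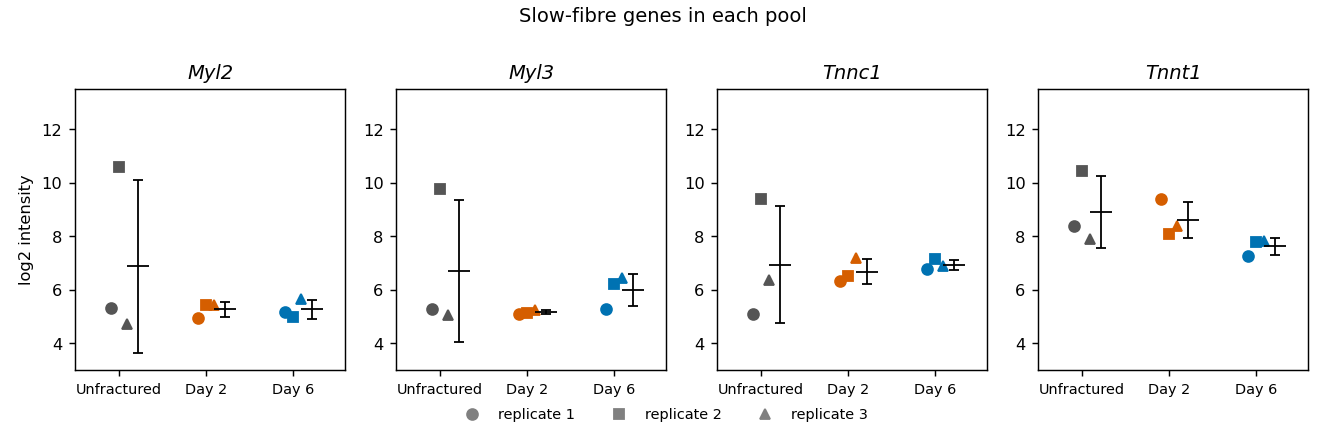
Each point is the log2 intensity of 1 pool, with the symbol giving the replicate number, for Myl2, Myl3, Tnnc1 and Tnnt1. Horizontal marks and bars give the mean and SD of the 3 pools of a group. For Myl2, Myl3 and Tnnc1 unfractured replicate 2 stands alone at 10.58, 9.77 and 9.38.

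The thin filament genes had their largest day 2 to day 6 difference in the fast troponin C. Acta1, the skeletal muscle alpha-actin, read 8.69, 12.49 and 8.02 without fracture, 9.99, 10.96 and 11.40 at day 2 and 7.17, 9.58 and 8.42 at day 6. All day 2 pools lay above all day 6 pools and above unfractured replicates 1 and 3, and unfractured replicate 2 lay above all other pools. The fitted difference of Acta1 for day 6 against day 2 was -2.39 ± 1.10 (SE), a 5.25-fold lower value, with a limma adjusted p of 0.451. Tnnc2, the calcium-binding troponin of fast fibres, read 8.44, 10.71 and 6.31 unfractured, 8.91, 9.44 and 9.97 at day 2 and 5.52, 7.32 and 6.63 at day 6. Its day 2 and day 6 pools were well apart, at a fitted -2.95 ± 0.97 (SE), 7.73-fold lower at day 6 (limma adjusted p = 0.258).

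Tnni2, the inhibitory troponin of fast fibres, read 8.29, 10.94 and 7.09 unfractured, 9.32, 10.26 and 10.01 at day 2 and 8.47, 9.32 and 9.36 at day 6. Its day 6 pools lay above unfractured replicates 1 and 3, and its day 2 and day 6 ranges overlapped. Tnnt1, the tropomyosin-binding troponin of slow fibres, read 8.37, 10.44 and 7.92 unfractured, 9.39, 8.10 and 8.37 at day 2 and 7.25, 7.79 and 7.82 at day 6. Its day 6 pools lay below all others, and within day 2 the highest pool was replicate 1, where most other muscle genes were lowest. Tpm3, a tropomyosin of slow fibres of which non-muscle cells also make forms, read 12.47, 12.41 and 13.12 unfractured, 12.86, 11.64 and 11.71 at day 2 and 12.33, 11.73 and 11.56 at day 6. This is 1 of 4 Tpm3 probes, and the others were detected on 0 arrays. In every group the highest pool of Tpm3 was the one rich in leukocyte markers. Tnnt3, the fast troponin T, was outside the 5 thin filament genes with the highest mean and ranged from 5.18 to 8.86, its peak again in unfractured replicate 2.

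The Z-disc and M-band genes divided. Actn3, the alpha-actinin of fast fibres, read 8.64, 9.31 and 6.54 without fracture, then 7.57, 8.44 and 8.59 at day 2 and 5.96, 7.25 and 6.80 at day 6. As with the fast troponin C, its day 2 pools all lay above its day 6 pools (-1.53 ± 0.68 SE, limma adjusted p = 0.434). A second Actn3 probe, detected on 6 arrays, read 5.26, 7.64 and 5.37 unfractured. It read 6.29, 7.48 and 7.50 at day 2 and 5.41, 5.97 and 5.67 at day 6. On that probe unfractured replicates 1 and 3 lay below every day 6 pool. The remaining Actn3 probe was detected on 0 arrays. Myom1, which cross-links thick filaments at the M-band, read 11.65, 11.23 and 9.22 unfractured, 7.32, 10.36 and 9.76 at day 2 and 8.14, 8.00 and 7.51 at day 6. Here unfractured replicates 1 and 2 were both high, day 2 replicate 1 was lower than every other pool, and all day 6 pools lay below all unfractured pools. A second Myom1 probe, detected on 6 arrays, read 7.33, 7.93 and 5.40 unfractured, 4.79, 7.75 and 7.17 at day 2 and 5.79, 5.58 and 4.75 at day 6, with replicate 2 the highest pool and the unfractured and day 6 pools overlapping. On the first probe the difference for day 6 against unfractured was -2.82 ± 0.84 (SE), 7.06-fold lower, with a limma adjusted p of 0.110. Tcap, the titin cap of the Z-disc, read 8.92, 8.48 and 6.60 unfractured, 5.58, 6.71 and 7.05 at day 2 and 5.04, 5.70 and 5.60 at day 6, at a fitted -2.55 ± 0.61 (SE) for day 6 against unfractured, 5.87-fold lower. Its unfractured pools were likewise all above the day 6 pools, of which only 1 was detected.

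Ldb3, a Z-disc scaffold, read 7.73, 6.67 and 5.94 unfractured, 5.87, 5.63 and 5.78 at day 2 and 4.89, 5.71 and 6.09 at day 6, and was the 1 gene whose day 2 pools all lay below its unfractured pools, where 7.69% of all genes did so. The giant spring protein titin (Ttn) read 6.49, 7.31 and 5.09 unfractured, 5.93, 6.52 and 7.15 at day 2 and 6.37, 6.61 and 5.75 at day 6, with all 3 groups overlapping. All day 6 pools lay below all unfractured pools for 4 muscle genes (Tnnt1, Tpm3, Tcap and Myom1), against 11.8% of all genes, so the count is near the background.

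Among the calcium genes, the fast pump and the cytosolic calcium buffer both stood higher in all day 2 pools than in all day 6 pools. Atp2a1, the fast-fibre pump SERCA1 that returns calcium to the sarcoplasmic reticulum, read 8.81, 12.01 and 8.35 without fracture, 9.51, 11.63 and 11.36 at day 2 and 6.01, 8.58 and 7.84 at day 6. Every day 2 pool was above every day 6 pool and above unfractured replicates 1 and 3. Its day 6 against day 2 difference of -3.36 ± 1.05 (SE), 10.2-fold lower, was the lowest among the 28 genes, with a limma adjusted p of 0.235. Pvalb, the calcium buffer parvalbumin of fast fibres, read 8.01, 10.99 and 7.78 unfractured, 8.38, 9.54 and 9.74 at day 2 and 5.87, 7.83 and 6.59 at day 6. Its day 2 pools lay above its day 6 pools and above unfractured replicates 1 and 3, at -2.46 ± 0.87 (SE) and a limma adjusted p of 0.299. Casq2, the calcium store protein of cardiac and slow muscle, read 9.55, 9.31 and 5.27 unfractured, 6.06, 8.18 and 7.82 at day 2 and 5.04, 5.99 and 5.82 at day 6. It was high in unfractured replicates 1 and 2 as Myom1 was, undetected in replicate 3, and its day 2 pools lay above its day 6 pools by a narrow margin. On the probe used, Ryr1, the calcium release channel, read 5.94, 6.21 and 5.46 unfractured, 5.51, 5.59 and 5.95 at day 2 and 5.73, 5.80 and 5.67 at day 6, close to background throughout, with no separation of the groups. Another Ryr1 probe, detected on 4 arrays, read 4.80, 5.44 and 5.43 unfractured, 6.58, 5.60 and 6.07 at day 2 and 5.68, 5.31 and 5.58 at day 6. On that probe all day 2 pools lay above all unfractured pools. This order held for 0 of the 28 measured genes on the probes used, against 10.9% of all genes. The remaining Ryr1 probes were detected on 2 arrays and 0 arrays.

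Several energy genes had day 2 pools close together and apart from the day 6 pools. Ckm, the muscle creatine kinase, read 4.75, 7.63 and 5.17 without fracture, 6.99, 7.21 and 7.16 at day 2 and 5.03, 4.76 and 4.92 at day 6. It was detected in unfractured replicate 2 and in all day 2 pools, and in no day 6 pool. The day 2 level was at least 2.91-fold higher than the day 6 level, with a limma adjusted p of 0.182. Cox6a2, the muscle subunit of cytochrome c oxidase, read 5.35, 9.57 and 6.44 unfractured, 7.97, 8.03 and 8.20 at day 2 and 5.85, 5.78 and 6.42 at day 6. The 3 day 2 pools of Cox6a2 lay close together and above all day 6 pools, at -2.05 ± 0.88 (SE, limma adjusted p = 0.414). Eno3, the muscle enolase of glycolysis, read 7.31, 10.55 and 7.53 unfractured, 8.99, 8.92 and 9.18 at day 2 and 7.51, 7.63 and 7.17 at day 6, again with all day 2 pools above all day 6 pools, at a fitted -1.59 ± 0.74 (SE, limma adjusted p = 0.451). Mb, the oxygen store myoglobin, read 7.05, 9.20 and 5.80 unfractured, 6.83, 7.71 and 7.25 at day 2 and 5.68, 6.17 and 5.71 at day 6. Its day 2 pools lay above its day 6 pools as well, and unfractured replicate 2 was well above the rest. A second Mb probe, detected on 3 arrays, read 4.96, 6.96 and 4.62 unfractured. It read 5.48, 5.87 and 5.84 at day 2 and 5.16, 5.43 and 5.38 at day 6. On that probe unfractured replicates 1 and 3 lay below every day 6 pool. Pgam2, the muscle phosphoglycerate mutase, read 8.19, 8.79 and 4.98 unfractured, 6.45, 7.56 and 7.99 at day 2 and 5.94, 7.30 and 7.06 at day 6, and its day 2 and day 6 pools overlapped.

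**Figure D4:**
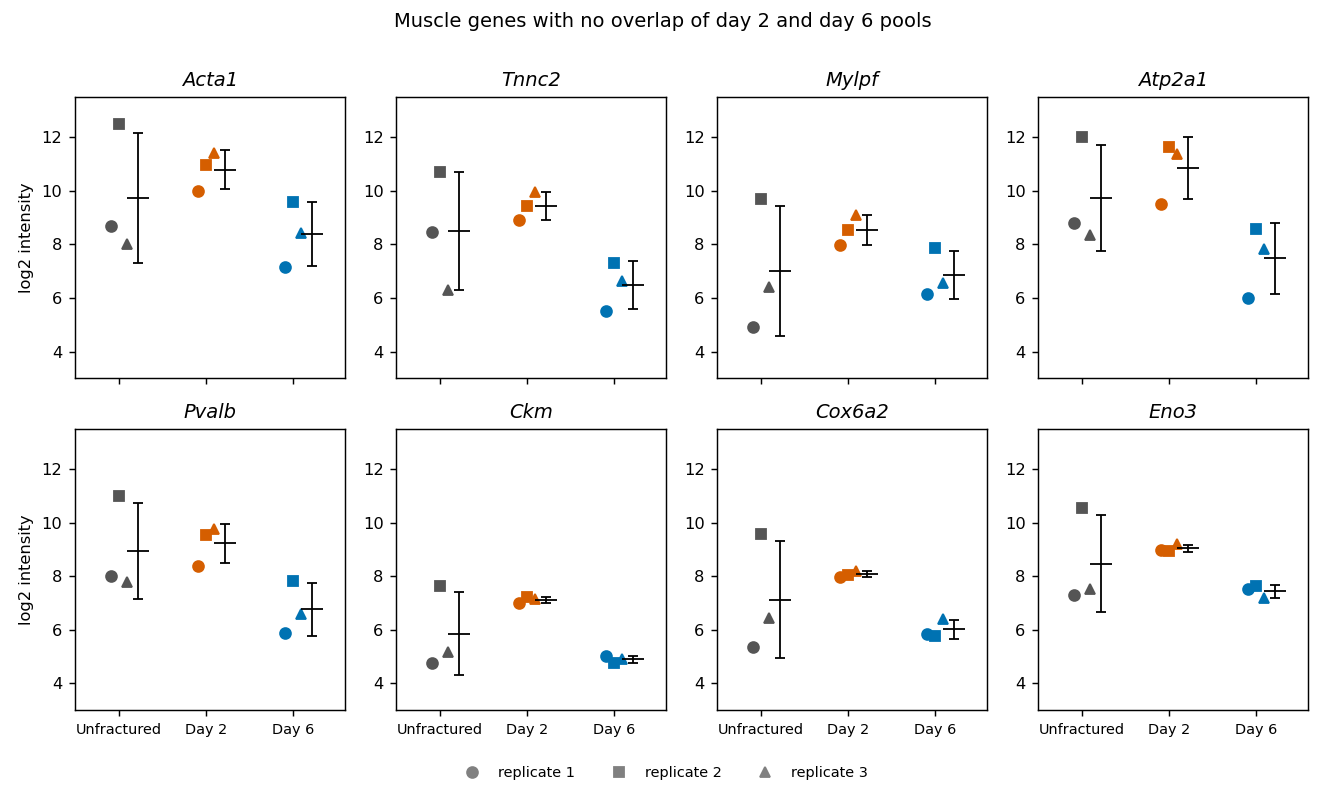
Each point is the log2 intensity of 1 pool, with the symbol giving the replicate number, for 8 of the 12 genes whose day 2 pools all lie above their day 6 pools. Horizontal marks and bars give the mean and SD of the 3 pools. In all 8 panels unfractured replicate 2 is the highest pool, and the day 2 pools of Ckm and Cox6a2 lie close together.

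The fit shares 1 spread over the 3 groups. The unfractured pools were the most spread for the measured muscle genes other than Myom1, Tpm3 and Ckmt2, whose day 2 pools were more spread. The SD of Cox6a2 was 2.19 over the unfractured pools, 0.12 at day 2 and 0.35 at day 6 (n = 3 each). That of Ckm was 1.55, 0.12 and 0.14, the last over 3 undetected arrays. In a fit of only the day 2 and day 6 arrays 4 muscle genes passed as lower at day 6 (Ckm, Cox6a2, Eno3 and Tnnc2, limma), where 0.496% of all genes fell. With unfractured replicate 2 left out of the full fit, 3 of them passed (Ckm, Cox6a2 and Eno3, limma), where 0.0993% of all genes fell. Without that pool, the differences of Acta1, Cox6a2 and Eno3 between day 6 and unfractured turned from negative to 0.04, 0.12 and 0.02 on the log2 scale.

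Fast and slow genes differed in direction at day 2, and the size of both depended on single pools. Of the 9 measured genes of fast fibres, 9 were fitted higher at day 2 than in unfractured pools, with a median log2 difference of 0.95, and all 5 measured genes of slow fibres were fitted lower, with a median of -0.60. For day 6 against day 2 the medians were -1.61 for the fast genes and -0.20 for the slow genes. Both slow medians are the values of Tpm3, of which non-muscle cells also make forms. Myl3, another of the slow genes, was undetected on all day 2 arrays. All day 2 pools lay above unfractured replicates 1 and 3 for 11 of the 28 muscle genes, 7 of them fast and 0 slow, where 15% of all genes did so. The fast-fibre mean per pool was 7.55, 10.30 and 6.96 without fracture, 8.22, 9.45 and 9.55 at day 2 and 6.44, 7.96 and 7.21 at day 6. The slow-fibre mean was 8.15, 10.26 and 7.54 unfractured, 7.95, 7.92 and 8.07 at day 2 and 7.34, 7.78 and 7.71 at day 6, with only unfractured replicate 2 standing out. Leaving out 1 pool at a time, which was added after the values were seen, kept the fast median between 0.20 and 2.06 for day 2 against unfractured and between -2.04 and -1.32 for day 6 against day 2. Without unfractured replicate 3 only 5 of the 9 fast genes were higher at day 2 than unfractured (median 0.20), and without replicate 2 only 3 of the 5 slow genes were lower (median -0.001). The slow median for day 6 against day 2 ran from -0.43 to 0.07, and its sign turned without day 2 replicate 1. The difference between fast and slow genes was not tested.

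Myom1, Tcap, Casq2, Ldb3 and Ckmt2 had their highest value in unfractured replicate 1, which is 5 of 28 measured genes and near the background, since 20% of all genes peaked there. Of the 11 measured smooth muscle and pericyte markers 6 peaked in unfractured replicate 1 and 3 in replicate 2. Averaged over the 11, unfractured pools read 11.82, 11.47 and 10.07, day 2 pools 8.62, 11.01 and 10.43 and day 6 pools 9.66, 10.04 and 9.82. Myh11, the smooth muscle myosin heavy chain, read 14.64, 14.07 and 11.00 unfractured, 8.52, 12.92 and 12.46 at day 2 and 8.82, 9.78 and 9.44 at day 6. Like Myom1, it was low in day 2 replicate 1 and in all day 6 pools, whereas Ldb3 was highest within day 2 in replicate 1. The markers did not all run this way: the pericyte gene Cspg4 rose at day 6, reading 9.37, 8.87 and 8.39 unfractured, 7.82, 8.77 and 8.09 at day 2 and 10.51, 10.91 and 11.16 at day 6 (limma adjusted p = 0.0228 against unfractured and 0.00846 against day 2), and Smtn was fitted higher at day 6 (11.77) than at day 2 (11.39). In a fit of 6 arrays without the pool richest in leukocyte markers of each group, Casq2, Myom1, Tcap, Ldb3 and Tpm3 passed as lower at day 2 than in unfractured pools (limma), where 9.99% of all genes fell. The same fit passed 8 muscle genes as lower at day 6 than unfractured, where 14.1% of all genes fell, and 2 as lower at day 6 than at day 2 (Casq2 and Myom1), where 1.04% fell. Leaving out unfractured replicate 3 alone passed Tcap as lower at day 2, where 4.31% of all genes fell, and 7 muscle genes, Tcap, Myom1, Casq2 and Ldb3 among them, as lower at day 6, where 7.39% fell. Without day 2 replicate 1 Myom1 passed as lower at day 6 than unfractured, where 1.14% fell. The part of smooth muscle transcripts in these values was not tested.

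**Figure D5:**
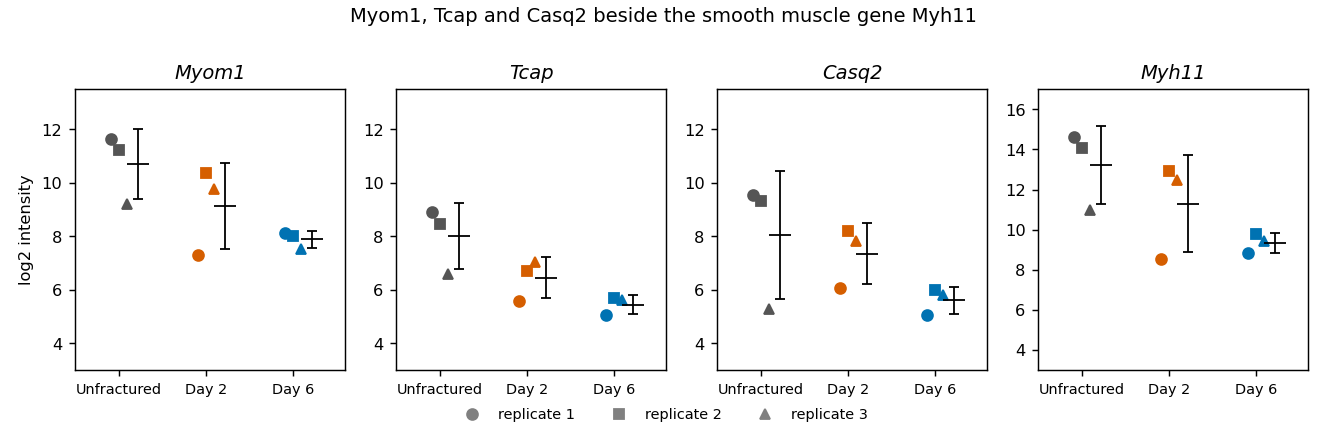
Each point is the log2 intensity of 1 pool, with the symbol giving the replicate number, for Myom1, Tcap, Casq2 and the smooth muscle gene Myh11, whose axis reaches higher. Horizontal marks and bars give the mean and SD of the 3 pools of a group. In all 4 panels unfractured replicates 1 and 2 are the highest pools and replicate 3 is below them.

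Promoters are shown for Acta1 and Ckm, of the genes that peaked in unfractured replicate 2, and for Myom1 and Casq2, of those that peaked in replicate 1. The sequences are the 250 bases before the transcript start from RefSeq (GRCm38.p6): Acta1 at chr8:123894776-123895025 on the minus strand, Ckm at chr7:19410844-19411093, Myom1 at chr17:71019307-71019556 and Casq2 at chr3:102086165-102086414, the last 3 on the plus strand. Capitals mark matches to the E-box CANNTG, bound by myogenic factors such as MyoD, to the MEF2 site and to the CArG box, bound by serum response factor.
Acta1: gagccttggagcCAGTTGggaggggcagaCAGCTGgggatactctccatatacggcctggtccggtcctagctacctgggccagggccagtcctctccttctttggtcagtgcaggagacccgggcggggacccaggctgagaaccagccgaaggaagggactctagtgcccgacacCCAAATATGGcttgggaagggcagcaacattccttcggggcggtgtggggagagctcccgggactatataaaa
Ckm: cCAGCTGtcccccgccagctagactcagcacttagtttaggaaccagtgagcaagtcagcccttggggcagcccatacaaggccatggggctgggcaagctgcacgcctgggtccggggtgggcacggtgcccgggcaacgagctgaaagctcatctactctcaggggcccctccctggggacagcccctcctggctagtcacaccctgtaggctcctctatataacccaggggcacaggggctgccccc
Myom1: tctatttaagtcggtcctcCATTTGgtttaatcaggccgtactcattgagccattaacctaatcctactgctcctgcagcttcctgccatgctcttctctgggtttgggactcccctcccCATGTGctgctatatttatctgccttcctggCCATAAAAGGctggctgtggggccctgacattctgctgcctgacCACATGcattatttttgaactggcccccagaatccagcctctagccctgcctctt
Casq2: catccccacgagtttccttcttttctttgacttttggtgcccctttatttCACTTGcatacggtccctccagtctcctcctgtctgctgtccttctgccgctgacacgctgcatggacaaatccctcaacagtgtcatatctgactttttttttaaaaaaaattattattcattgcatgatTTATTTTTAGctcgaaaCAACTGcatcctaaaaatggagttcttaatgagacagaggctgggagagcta
The CArG match lies in Acta1 and Myom1 and the MEF2 match in Casq2. On both strands, an E-box CANNTG was found in 66.2% of 32851 mouse promoters of this length and in the promoters of 21 of the 23 measured muscle genes that the table holds. The narrower E-box CAGCTG, a subset of the first, was in 13% of all promoters and those of 10 of the 23 genes, in Acta1 and Ckm among these. A MEF2 site was in 2.92% of all promoters and those of 4 of the 23 genes, and a CArG box in 1.47% and in those of 4 of the 23. A gene with several promoters was counted if any of them matched, whereas the percentages count promoters. Of the 39 promoters of the muscle genes, measured or not, 33, 16, 7 and 6 matched these motifs in the same order. A match describes the letters only and is not a measured binding site.

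Other muscle genes, from lists chosen with earlier results of these data known, were read beside these. Of 63 further skeletal muscle genes 47 had a probe, 30 were measured and 0 passed in any comparison, with median log2 differences of -0.54, -0.69 and -0.27 in the same 3 comparisons. Averaged over the 30, the pools read 8.31, 8.61 and 7.55 without fracture, 7.36, 8.08 and 7.90 at day 2 and 7.50, 7.42 and 7.30 at day 6. Tpm2, a tropomyosin that smooth muscle also makes, read 14.01, 13.20 and 12.46 unfractured, 10.55, 12.72 and 12.17 at day 2 and 10.60, 11.74 and 11.04 at day 6, and the LIM protein gene Pdlim3 read 13.18, 12.46 and 9.99 unfractured, 8.23, 12.05 and 11.21 at day 2 and 8.52, 8.91 and 8.50 at day 6. Both were highest in unfractured replicate 1. Of 18 widely expressed relatives of the muscle genes 14 were measured, and 1 rose, the brain-type phosphoglycerate mutase Pgam1, which read 8.79, 8.84 and 9.01 without fracture and 10.90, 10.30 and 10.13 at day 6 (log2 difference 1.56, limma adjusted p = 0.0218). Its muscle form Pgam2 was fitted lower at day 6 (7.32 to 6.77) and did not pass.

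Genes of muscle stem cells and forming muscle were read as well, since they would mark cells that make new fibres. Of 18 satellite cell and myogenic genes 11 were measured and 0 passed, and the stem cell genes Pax7, Pax3 and Myf5 were detected on 1, 0 and 0 arrays. Their mean was 7.34, 8.47 and 6.72 without fracture, 7.03, 7.86 and 8.06 at day 2 and 6.70, 7.13 and 6.82 at day 6. Chrna1, a subunit of the muscle acetylcholine receptor, read 5.33, 10.50 and 5.44 unfractured, 7.73, 9.40 and 9.83 at day 2 and 5.80, 7.15 and 6.23 at day 6. It was highest in unfractured replicate 2, then in the day 2 pools. Chrnb1, another subunit of this receptor, was detected on 9 arrays and read 11.01, 11.26 and 7.90 unfractured. It read 8.63, 9.51 and 9.74 at day 2 and 7.54, 8.57 and 8.51 at day 6. Unlike Chrna1, it was high in both unfractured replicates 1 and 2, which lay above every day 2 pool. Myod1, detected on 6 arrays, read 6.41, 8.83 and 5.05 unfractured, 6.34, 6.76 and 7.28 at day 2 and 4.62, 5.61 and 5.77 at day 6. Other genes of this list ran differently. Ncam1 read 7.39, 7.56 and 6.85 unfractured, 7.38, 7.56 and 7.38 at day 2 and 8.19, 8.32 and 8.30 at day 6. Mef2c was fitted higher at day 6 (12.64) than at day 2 (11.58). Actc1, the actin of heart and of forming skeletal muscle, read 5.45, 6.68 and 5.26 unfractured, 7.39, 8.73 and 8.65 at day 2 and 5.27, 8.54 and 7.65 at day 6. It was not at its highest in unfractured replicate 2, and day 2 replicates 2 and 3 stood above all others with day 6 replicate 2 close by. Myog, a factor that starts muscle differentiation, was singled out after its values were seen. It read 5.00, 6.07 and 5.38 unfractured, 6.42, 6.75 and 7.07 at day 2 and 4.96, 6.64 and 5.86 at day 6. Its day 2 pools all lay above its unfractured pools, as was so for 10.9% of all genes. Of 11 cardiac markers 3 were measured, namely Actc1, Myl4 and Pln. Myl4, detected on all 9 arrays, had means of 8.16 unfractured, 8.42 at day 2 and 9.17 at day 6. Pln, detected on 6 arrays, read 10.12, 8.54 and 6.37 unfractured and 5.00, 8.89 and 8.42 at day 2. At day 6 Pln read 5.04, 5.59 and 5.08. The heart genes Myh6, Myl7, Tnni3 and Ryr2 were detected on no array, Nppa and Nppb on 1 each and Mybpc3 on 2.

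Unfractured replicate 2, the pool with the highest muscle values, was the female unfractured pool, made from 8 mice. It had the lowest leukocyte mean of the 9 pools, 7.17, and a smooth muscle mean of 11.47, second to replicate 1. The female pools of the other groups, day 2 replicate 3 and day 6 replicate 3, had muscle means of 8.19 and 6.77, next to 8.11 and 7.09 in the replicate 2 pools of their groups. With sex as a term in the model 0 muscle genes passed in any comparison, with smallest limma adjusted p of 0.327, 0.0854 and 0.159. The pool rich in leukocyte markers was the lowest of its group for 20 of the 28 genes in the unfractured group, 23 at day 2 and 18 at day 6, where 38.4%, 51.2% and 49.8% of all genes were lowest there. It was lowest in every group for 14 genes, against 16.7% of all genes. At day 6 the cells also carried cartilage transcripts, with all 8 cartilage markers rising against unfractured pools and their mean between 12.09 and 13.06, beside 5.94 to 7.15 in the other 6 pools. The part of cartilage transcripts and of the number of pooled animals in the muscle values was not tested.

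The muscle genes also varied together over the 9 pools to different degrees. Pearson's r of a gene with the mean of the other 27 was highest for Mb (0.978), Myl1 (0.961), Pvalb (0.950), Acta1 (0.946) and Tnnc2 (0.944). It was lowest for Ckmt2 (-0.22), the mitochondrial creatine kinase, and Tpm3 (-0.17), and lay at 0.34 for Ldb3, 0.61 for Myom1 and 0.64 for Tcap. Among measured genes outside every gene list used here, the 5 most like the mean of the 28 were Iqsec3 (0.942), Trim8 (0.937), Mob1a (0.936), Emd (0.932) and Ankrd1 (0.927), the last a titin-binding ankyrin-repeat gene of striated muscle. Genes of the other lists, Myod1 and Chrna1 among them, were not ranked. The genes share the same 9 pools and the 1 high pool, so these values are descriptions.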

How the data were processed

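RNA of the sorted reporter cells of 9 pools was hybridised to Illumina BeadChips, 1 array per pool. The deposited non-normalised table holds the linear intensity of 25697 probes, exported from GenomeStudio (version not given in the sources used here), per the submitters' processing notes, and a detection p-value per probe that the authors deposited beside it. The second deposited table holds normalised intensities and served as an alternative, after a log2 step that the deposited values had not had. The genome build behind the probes is not given in the sources used here.

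Intensities were corrected by normexp, whose control statistics came from the detection values, with an offset of 16, then quantile-normalised and log2-transformed (neqc, limma 3.58.1, R 4.3.3). Probes with detection p under 0.05 on at least 3 arrays were kept (14519), and the probe with the highest mean stood for its gene, which left 10073 genes. Where different probes of a gene exist, the mean of them was an alternative. All 9 arrays entered 1 linear model, with a mean for each group (lmFit, eBayes, two-sided, 6 residual degrees of freedom), with Benjamini-Hochberg adjustment over all genes. The threshold for passing, and for the words rise and fall, was an adjusted p below 0.05. The procedure was tested on simulated data. Where a gene was undetected on all arrays of a group, a lower bound is given, against the lowest detected signal of each array or the gene's own where higher. For Mybpc2 this bound is not firm, since day 2 replicate 1 was undetected as well. The number of arrays limits the precision. The labels call the pools replicates and do not say that they were collected separately, so p-values measure the spread between these pools.

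The members and all gene lists were chosen with earlier results of these data known. Pool values are given for the 5 measured members with the highest mean in each role (24 in all) and up to 4 genes of each other list. Myod1 and Myog, outside the 4 genes with the highest mean in their list, are given as well. Differences are printed mainly where their size was over 1, which was settled after the values were seen. Replicate numbers are shared between the groups: deviations from the group means correlated at 0.63, 0.52 and 0.51 between same-numbered day 2 and day 6 pools, and at -0.19, 0.40 and -0.31 between unfractured and day 2. The pairing for day 2 and day 6 comes from the values and not from the labels. A further 20 alternatives were run, with other background, scaling, filter, probe and sample choices. Promoters came from RefSeq (GRCm38.p6) and were searched with Python 3.11.15.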

Additional observations from a re-analysis of the deposited data

How the results depend on the processing

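In the 20 alternatives no muscle gene passed as higher in any comparison, and the median of the muscle genes stayed negative in all 20 for day 6 against unfractured (-1.51 to -0.27) and for day 6 against day 2 (-1.62 to -0.56). For day 2 against unfractured it was negative in 6 of 20 (-0.37 to 0.79). Some of the 20 cannot move the median, so they say nothing about its stability. These are the replicate block, the sex term, the fit of only 2 groups and leaving out a pool of the group not compared. All of them leave the differences between the compared group means unchanged. The smallest limma adjusted p of a muscle gene ranged from 0.0198 to 0.575, from 0.00187 to 0.209 and from 0.00405 to 0.522 in these comparisons (day 2 against unfractured, day 6 against unfractured, day 6 against day 2). Counts of muscle genes that passed moved from 0 to 5, 8 and 2 without the leukocyte-rich arrays, which leaves 6 arrays. Of all genes 9.99%, 14.1% and 1.04% fell in that fit. With only the day 2 and day 6 groups 4 muscle genes passed, where 0.496% of all genes fell. Leaving out 1 pool at a time gave 0 to 1, 0 to 7 and 0 to 3. Without unfractured replicate 3, Tcap passed at day 2, where 4.31% of all genes fell. The same fit passed 7 genes at day 6 (Actn3, Casq2, Ldb3, Mb, Myom1, Tcap and Tnnc2), where 7.39% fell. The second probes of Actn3 and Mb, which did not enter it, read 5.26 and 4.96 in unfractured replicate 1, below every day 6 pool. Without unfractured replicate 2 Ckm, Cox6a2 and Eno3 passed for day 6 against day 2, where 0.0993% fell. Without day 2 replicate 1 Myom1 passed for day 6 against unfractured, where 1.14% fell. Over these fits the day 6 against unfractured difference of Acta1 ran from -2.20 to 0.0399, of Cox6a2 from -1.99 to 0.121 and of Eno3 from -1.60 to 0.0186, reversing without unfractured replicate 2. With the replicate block 0 muscle genes passed in each comparison, while calls over all genes for day 6 against day 2 went from 143 to 89. The block is balanced over the groups, so the medians of 0.13, -0.99 and -1.22 could not change. Median scaling in place of quantile normalisation moved the medians of all genes to 0.83, 0.72 and -0.13 and those of the muscle genes to 0.76, -0.58 and -1.38. The cause of these shifts was not tested. Of the 9 muscle genes below the detection filter, 5 were never detected, so no level is given for them.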
